A study of Mus musculus with 6 samples.

Results

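Chemokines are small secreted proteins that guide migrating leukocytes through G protein-coupled receptors. The genes described here are 6 CXC chemokine ligands (Cxcl1, Cxcl2, Cxcl3, Cxcl9, Cxcl10 and Cxcl11) and the XC ligand Xcl1. CXCL1, CXCL2 and CXCL3 carry the ELR motif and recruit neutrophils through CXCR2, CXCL9, CXCL10 and CXCL11 are interferon-induced ligands of CXCR3, a receptor of activated T cells, and XCL1 is released by activated T and NK cells and acts on dendritic cells that bear XCR1. Every probe set that named one of these genes alone was taken, which gave 11 probe sets for 7 genes, out of 45101 probe sets and 18194 genes measured.

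RNA came from cultured Th2 cells, the CD4 T cell subset that makes IL-4, IL-5 and IL-13 under the transcription factor GATA3, and was read on 6 Affymetrix mouse genome arrays. Th2-1st cells were splenic CD4 T cells (purity over 98%) of C57BL/6 mice aged 6 to 8 weeks, stimulated through the T cell receptor (TCR) and CD28 and grown for 5 days in all, with IL-4 at 100 U/ml and IL-2 at 25 U/ml. Th2-4th cells were such cells carried on through 2 days without added cytokines and 5 days of anti-TCR restimulation with IL-2 and an anti-IL-4 antibody, a cycle that was repeated 3 times. Both cultures were then transfected with a control siRNA or with a Gata3 siRNA and, 24 hours later, left unstimulated or stimulated with immobilised anti-TCR antibody for 4 hours.

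Each culture gave 3 arrays, of unstimulated cells with the control siRNA, of anti-TCR stimulated cells with the control siRNA, and of anti-TCR stimulated cells with the Gata3 siRNA. There was no unstimulated array with the Gata3 siRNA. With 1 array per condition no p-value, SD or replicate error can be given, and each ratio below compares 2 arrays. The stimulated control array of a culture enters both its anti-TCR ratio and its siRNA ratio, so that these ratios are not independent of each other. The sources used here do not say whether the cultures came from 1 mouse, pooled mice or separate mice. In a bulk RNA sample, fewer cells that make a transcript and less transcript per cell cannot be told apart.

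Signals are on a linear scale, and the median signal of an array, 61.8 to 74.2 over the 6 arrays, is used below as the level under which a value is called low. A ratio over 2 or under 0.5 counted as past 2-fold. The spread given beside a log2 ratio is the robust standard deviation of that ratio over all genes of like signal. It holds real changes of those genes and is not a replicate error. Gata3, the target of the siRNA, read 4883 with the control siRNA and 1798 with the Gata3 siRNA in stimulated Th2-1st cells, and 9261 and 2853 in stimulated Th2-4th cells (log2 ratios of -1.44 and -1.70). Of the T cell markers, 8 were measured and all 8 were above the median on all 6 arrays.

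The sequence just before the transcription start is shown first for Cxcl3, Cxcl1, Cxcl2, Cxcl10 and Xcl1. Each of these was above the array median on at least 3 arrays by its brightest probe set. Cxcl3, Cxcl1 and Cxcl2 lie close together on chromosome 5 and share a stretch there. The lines give the last 120 bases before the start (RefSeq, mouse build GRCm38.p6), 5′ to 3′ on the strand of the gene. Capitals mark matches to the NF-kappa B consensus and to the letters bound by GATA factors (GATA with A or T before it and A or G after it, on either strand).
Cxcl3 (chr5:90785981-90786100, + strand): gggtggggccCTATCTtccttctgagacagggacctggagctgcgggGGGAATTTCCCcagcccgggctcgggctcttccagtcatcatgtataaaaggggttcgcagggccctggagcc
Cxcl1 (chr5:90891125-90891244, + strand): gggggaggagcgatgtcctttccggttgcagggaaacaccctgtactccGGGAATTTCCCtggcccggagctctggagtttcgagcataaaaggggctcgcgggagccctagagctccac
Cxcl2 (chr5:90903779-90903898, + strand): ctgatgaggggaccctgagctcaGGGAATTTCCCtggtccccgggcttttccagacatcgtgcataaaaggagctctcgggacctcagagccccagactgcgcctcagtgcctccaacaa
Cxcl10 (chr5:92348890-92349009, - strand): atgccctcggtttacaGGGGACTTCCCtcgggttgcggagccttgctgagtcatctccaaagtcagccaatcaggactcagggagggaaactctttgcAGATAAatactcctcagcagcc
Xcl1 (chr1:164935523-164935642, - strand): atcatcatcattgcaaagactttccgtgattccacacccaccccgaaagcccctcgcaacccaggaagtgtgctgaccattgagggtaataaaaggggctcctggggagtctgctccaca

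Cxcl3, Cxcl1 and Cxcl2 held the same 10 letters, GGGAATTTCC, which begin 73, 71 and 97 bases before their start sites. In these 3 genes the capitals run 1 base further because the reverse strand holds a consensus match shifted by 1 base. The 250 bases before the start were searched on both strands for 8 sets of letters in the 6 members with a RefSeq promoter (Cxcl11 had none). The NF-kappa B consensus was found in 4 of the 6, the 3 genes above and Cxcl10, and in 7.25% of 32841 promoter windows of that length. GGGAATTTCC itself, a search added after the sequences had been seen, was in 0.0853% of the windows.

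GATA letters were found in Cxcl3, as CTATCT beginning 110 bases before the start, and in Cxcl10, as AGATAA beginning 22 bases before it. These letters are frequent and were in 26.5% of all windows. Cxcl10 also held TGAGTCA, a form of the AP-1 letters TGANTCA that 6.75% of windows held, and a match to the interferon-stimulated response element (GAAA and GAAA with 2 bases between), which 2.98% of windows held. The NFAT letters TGGAAA were in Cxcl2 and Cxcl10 and in 18.6% of windows, and the TATA box TATAAA in Cxcl3 and Cxcl9 and in 12.4%. The interferon-gamma activated site (TTC and GAA with 3 bases between) was in 0 of the 6 and in 7.02% of windows. Each match is a description of letters and not of a site in use.

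On these arrays, 1 per condition, Cxcl3 was high after TCR stimulation of Th2-1st cells, lower after stimulation of Th2-4th cells, and lower with the Gata3 siRNA in both. CXCL3 is a neutrophil chemoattractant of the CXCR2 group. In Th2-1st cells its single probe set read 13.9 unstimulated, 2964 after anti-TCR with the control siRNA, and 335 after anti-TCR with the Gata3 siRNA. The same conditions in Th2-4th cells gave 8.92, 429 and 192. Both unstimulated arrays were low, and the 4 stimulated arrays were all above their medians.

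Stimulated Th2-1st control cells stood 6.91-fold above the next array, stimulated Th2-4th control cells. The latter, the Th2-1st array with the Gata3 siRNA and the Th2-4th array with the Gata3 siRNA followed with neighbours less than 2-fold apart, and a 13.8-fold gap lay between them and the unstimulated arrays. With the Gata3 siRNA the signal was 11.3% of control in Th2-1st cells (log2 ratio of -3.15, spread 0.21) and 44.8% in Th2-4th cells (-1.16, spread 0.33). In Th2-1st cells this was the 20th lowest siRNA ratio of the 10981 genes with at least 1 signal of the pair above its array median, and in Th2-4th cells the 297th lowest of 11045. The siRNA ratios differed between the cultures by 1.99 on the log2 scale, and with 1 array per condition this difference was not tested.

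The anti-TCR ratio of Cxcl3 was 213-fold in Th2-1st cells (log2 ratio of 7.73), the 23rd highest of 18194 genes, and 48.1-fold in Th2-4th cells (5.59), the 72nd highest. Between the stimulated control arrays Cxcl3 was lower in Th2-4th than in Th2-1st cells by a log2 ratio of -2.79 (spread 0.51), the 72nd lowest of 11130 genes above the median. The Th2 cytokine genes Il5 and Il13 had the opposite order there, with signals of 26465 and 15757 in stimulated Th2-1st and 44721 and 35292 in stimulated Th2-4th control cells. Their log2 ratios were 0.76 and 1.16, so that Il5 was not past 2-fold. Each of these orders, that of Cxcl3 included, rests on 1 array per culture and does not settle which culture had more transcript. With the Gata3 siRNA they read 909 and 1506 in Th2-1st and 10857 and 18108 in Th2-4th cells. A fold against an unstimulated array rests on a low signal there. With such signals raised to the array median the log2 ratio of Cxcl3 was 5.57 for Th2-1st and 2.53 for Th2-4th cells.

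Cxcl2 was high on all 4 stimulated arrays, with no difference past 2-fold between cultures or siRNAs. CXCL2, also known as MIP-2, is another neutrophil chemoattractant. Its probe set read 15.4, 4943 and 3475 in Th2-1st cells (unstimulated, stimulated control, stimulated Gata3 siRNA) and 29.1, 4144 and 4385 in Th2-4th cells. Neighbours in the order of the 4 stimulated arrays were at most 1.19-fold apart, and a 119-fold gap separated them from the unstimulated arrays. The highest and lowest of the 4, the control and the Gata3 siRNA array of Th2-1st cells, were 1.42-fold apart.

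Anti-TCR over unstimulated gave 320.3-fold in Th2-1st cells (log2 ratio of 8.32) and 143-fold in Th2-4th cells (7.15), the 19th and 30th highest of 18194 genes. Both unstimulated signals were low, and raised to the array median they gave log2 ratios of 6.30 and 5.80. The ratio of Gata3 over control siRNA was 0.703 in Th2-1st cells (log2 ratio of -0.51, spread 0.16) and 1.06 in Th2-4th cells (0.08, spread 0.22). Cxcl2 and Cxcl3 had siRNA ratios of 0.703 and 0.113 on the same pair of Th2-1st arrays, and of 1.06 and 0.448 on the Th2-4th pair. The part of the letters before their starts in these ratios was not tested.

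**Figure D1:**
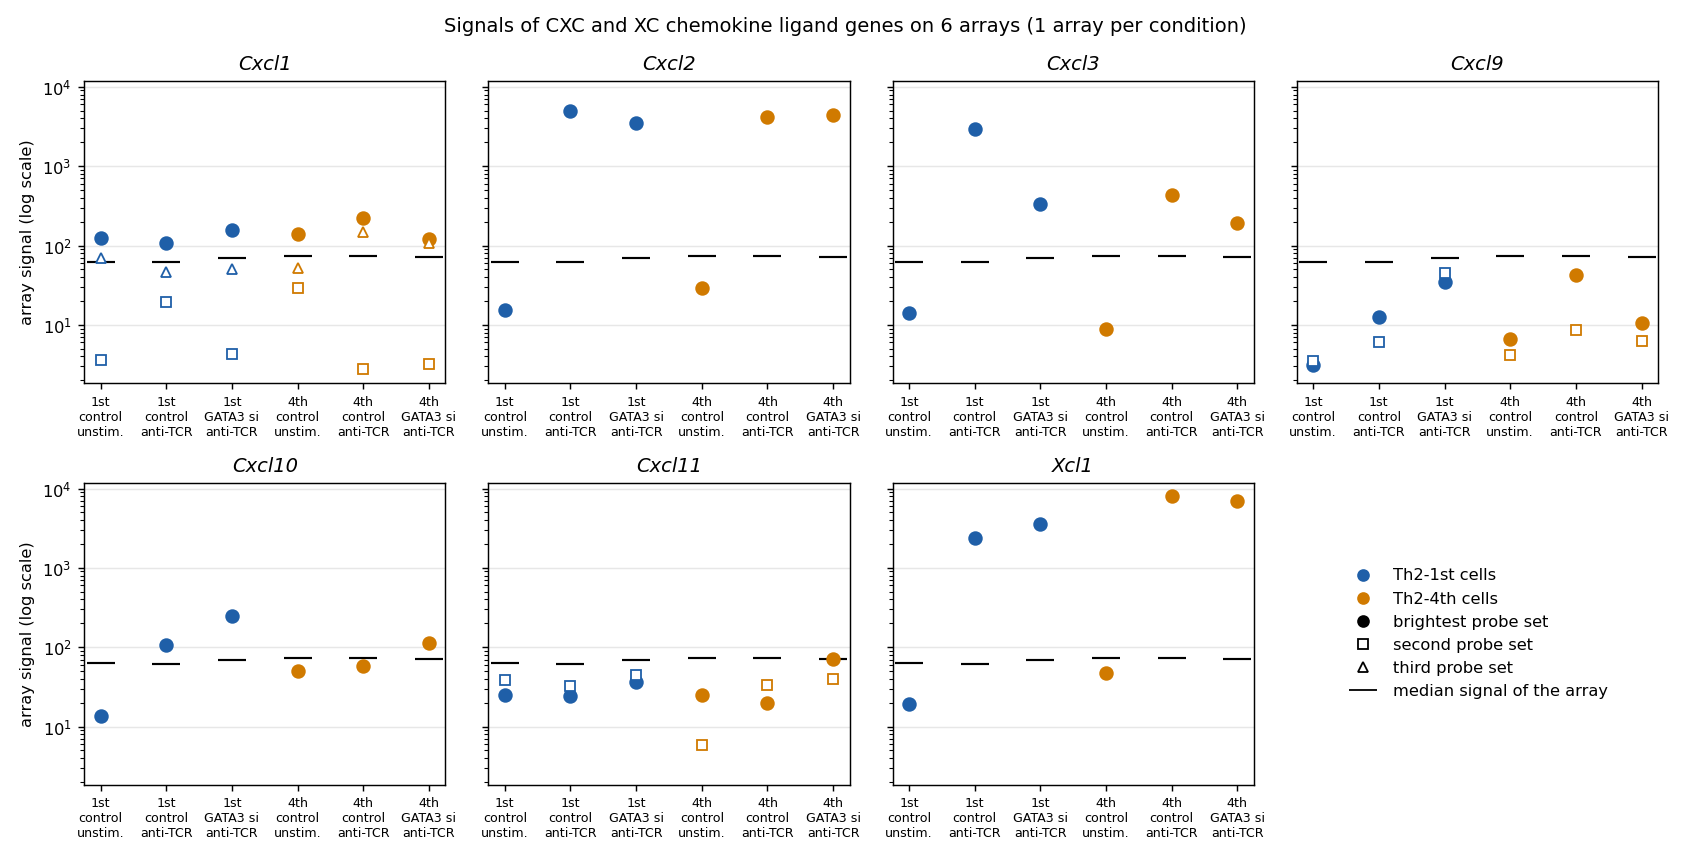
Array signal (log scale) of every probe set of the 7 chemokine ligand genes on the 6 arrays, 1 array per condition, with Th2-1st cells in blue, Th2-4th cells in orange, the brightest probe set of a gene as a filled circle, its other probe sets as open symbols and the median of the array as a black line. Cxcl2, Cxcl3 and Xcl1 lie above the median on the 4 stimulated arrays and below it on the 2 unstimulated ones, while Cxcl9 and Cxcl11 lie below it on all 6.

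Cxcl1 had no common pattern over its 3 probe sets. CXCL1, also known as KC, is the third neutrophil chemoattractant of the group. The brightest probe set (1441855_x_at) gave 123, 107 and 157 for Th2-1st and 139, 219 and 120 for Th2-4th cells, above the median on all 6 arrays, and every neighbour in the order of these levels was within 2-fold. The next (1457644_s_at) read 68.8, 46.0 and 50.6 in Th2-1st and 51.8, 148 and 108 in Th2-4th cells. Both carry the manufacturer's suffix for probes that may also bind other transcripts. The 1 probe set without such a suffix (1419209_at) was low on all 6 arrays, from 2.76 to 29.4.

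By the brightest probe set the anti-TCR log2 ratios of Cxcl1 were -0.20 for Th2-1st and 0.66 for Th2-4th cells, and the siRNA log2 ratios were 0.56 and -0.87, none of them past 2-fold. Stimulated Th2-4th control cells were 2.05-fold higher than stimulated Th2-1st control cells by this probe set (log2 ratio of 1.04). For the same pair of arrays 1457644_s_at gave 1.69, in the same direction, and 1419209_at gave -2.80, from signals of 19.3 and 2.76 that were both low. For TCR stimulation 1419209_at gave log2 ratios of 2.42 and -3.41, from signals that were all low.

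Around Cxcl3, Cxcl1 and Cxcl2 on chromosome 5, RefSeq orders the protein-coding genes Cxcl5, Ppbp, Pf4, Cxcl3, Cxcl15, Cxcl1, Cxcl2, Mthfd2l, Epgn and Ereg. The other chemokine genes among these are Cxcl5 and Cxcl15, for neutrophil chemoattractants, and Ppbp and Pf4, for platelet chemokines. Cxcl5, Ppbp, Cxcl15 and the growth factor genes Epgn and Ereg were above the median on 0 arrays, and Pf4 on 1, with 71.5 in stimulated Th2-1st cells with the Gata3 siRNA. Mthfd2l, an enzyme of mitochondrial folate metabolism that lies next to Cxcl2, read 116 to 270.0 and was above the median on all 6. Of the 10 genes, Cxcl3 and Cxcl2 were the ones whose stimulated control arrays stood over 10 times above the unstimulated arrays in both cultures.

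**Figure D2:**
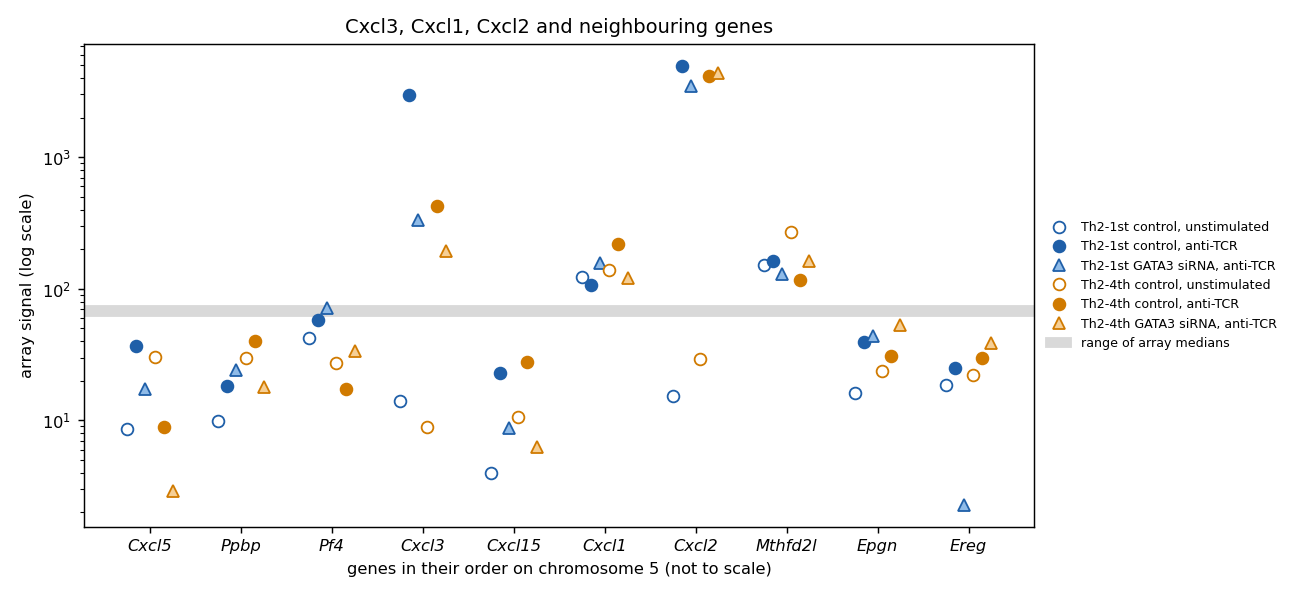
Array signal (log scale) of Cxcl3, Cxcl1, Cxcl2 and 7 neighbouring genes in their order along chromosome 5 (spacing not to scale), with 1 point per array, colours for the culture, open circles for unstimulated control, filled circles for stimulated control, triangles for stimulated Gata3 siRNA cells and a grey band for the range of the array medians. Cxcl3 and Cxcl2 leave the band upwards on the stimulated arrays, and Cxcl3 drops from 2964 to 335 and from 429 to 192 with the Gata3 siRNA.

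Cxcl10 was higher with the Gata3 siRNA in both cultures, from modest signals. CXCL10, also known as IP-10, is a CXCR3 ligand. Th2-1st cells gave signals of 13.8, 106 and 249.9 and Th2-4th cells 49.8, 58.3 and 113 (unstimulated, stimulated control, stimulated Gata3 siRNA). Both Gata3 siRNA arrays and the stimulated Th2-1st control array were above their medians, and the other 3 arrays were low. The Gata3 siRNA array of Th2-1st cells was 2.20-fold above the next in the order.

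The ratio of Gata3 over control siRNA was 2.36 in Th2-1st cells (log2 ratio of 1.24, spread 0.36), the 313th highest of the 10981 genes above the median, and 1.95 in Th2-4th cells (0.96, spread 0.56), which is not past 2-fold. Anti-TCR over unstimulated gave 7.69-fold in Th2-1st cells (log2 ratio of 2.94) and 1.17-fold in Th2-4th cells (0.23). When low signals were set to the array median, the first of these was 0.76 on the log2 scale, under 2-fold. Unstimulated Th2-4th cells read 3.62-fold higher than unstimulated Th2-1st cells, both of them low.

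Cxcl9 and Cxcl11, the other CXCR3 ligands, were low on every array. CXCL9 is the ligand also called MIG, and CXCL11 is I-TAC. The brighter Cxcl9 probe set read 3.2, 12.6 and 35.0 for Th2-1st and 6.59, 42.9 and 10.6 for Th2-4th cells, highest in stimulated Th2-4th control cells, and the other read from 3.51 to 44.7, highest in Th2-1st cells with the Gata3 siRNA. Log2 ratios of Gata3 over control siRNA were 1.47 and -2.01 by the brighter probe set and 2.89 and -0.48 by the other. The spreads at these signals were 1.40 and 1.61.

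Of the 2 Cxcl11 probe sets, the one with the higher mean log2 signal read 24.9, 24.0 and 36.1 for Th2-1st and 25.0, 19.6 and 70.4 for Th2-4th cells, and the other 39.0, 32.6 and 45.1, and 5.80, 33.1 and 39.6. All 12 values were under the array medians, the 70.4 just so. RefSeq lists Cxcl11 of this C57BL/6 reference as a transcribed pseudogene. On the chromosome Art3 lies between Cxcl9 and Cxcl10 and was above the median on 0 arrays. Nup54, which encodes a nuclear pore protein and follows Cxcl11, read 1821 to 5906.

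Xcl1 was high on all 4 stimulated arrays and higher in Th2-4th than in Th2-1st cells. XCL1, also called lymphotactin, attracts XCR1-bearing dendritic cells. Its probe set read 19.0, 2372 and 3548 in Th2-1st and 47.3, 7942 and 6952 in Th2-4th cells. The order ran from both stimulated Th2-4th arrays to both stimulated Th2-1st arrays, with neighbours less than 2-fold apart, and a 50.2-fold gap then led to the unstimulated arrays.

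Anti-TCR over unstimulated gave Xcl1 ratios of 125-fold in Th2-1st cells (log2 ratio of 6.96) and 168-fold in Th2-4th cells (7.39), the 35th and 24th highest of 18194 genes. The unstimulated signals were again low, and raised to the array median they gave log2 ratios of 5.25 and 6.74. Stimulated Th2-4th control cells were 3.35-fold above stimulated Th2-1st control cells (log2 ratio of 1.74, spread 0.55), the direction opposite to that of Cxcl3. Gata3 over control siRNA gave 1.5 in Th2-1st cells (0.58, spread 0.16) and 0.875 in Th2-4th cells (-0.19, spread 0.20), neither past 2-fold.

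Counted together, 5 of the 7 genes were past 2-fold higher after anti-TCR in Th2-1st cells and 0 were lower, where 17.5% of all genes were higher and 16.9% lower (34.4% in either direction). In Th2-4th cells 4 were higher and 0 lower, against 18.7% and 21.6% of all genes (40.3% in either direction). The 4 genes in both counts were Cxcl2, Cxcl3, Cxcl9 and Xcl1, of which Cxcl9 was low throughout, and Cxcl10 was the fifth in Th2-1st cells. The median log2 ratio of the 7 was 2.94 and 2.70, and that of all genes -0.01 and -0.10. Among genes whose higher signal was above the median, 4 of 5 members in Th2-1st and 3 of 4 in Th2-4th cells were higher and 0 lower, against 10.7% and 14.6% of such genes higher and 16.7% and 21% lower.

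With the Gata3 siRNA 2 members (Cxcl9 and Cxcl10) were past 2-fold higher and 1 (Cxcl3) lower in Th2-1st cells, against 13.3% and 7.49% of all genes (20.8% in either direction). In Th2-4th cells 1 (Cxcl11) was higher and 2 (Cxcl3 and Cxcl9) lower, against 10.6% in each direction (21.2% together). Among genes above the median the calls were Cxcl10 and Cxcl3 of 5 in Th2-1st cells, where 4.41% of such genes were higher and 2.26% lower, and Cxcl3 of 5 in Th2-4th cells, where 3% were higher and 3.49% lower. Cxcl3 was thus the 1 member past 2-fold in the same direction in both cultures. The median log2 ratio of the 7 was 0.58 and -0.19, and that of all genes 0.05 and 0.01.

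Between the cultures, unstimulated Th2-4th cells had 3 members past 2-fold higher and 0 lower than Th2-1st cells, against 19.5% and 12.3% of all genes (31.8% in either direction), and each of the 3 (Cxcl9, Cxcl10 and Xcl1) was low in both. In stimulated control cells 3 were higher (Cxcl1, Cxcl9 and Xcl1) and 1 lower (Cxcl3), against 17.2% and 12.7% (29.9% in either direction). The median of the 7 was 0.91 unstimulated and -0.25 stimulated, where all genes had 0.17 and 0.10.

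**Figure D3:**
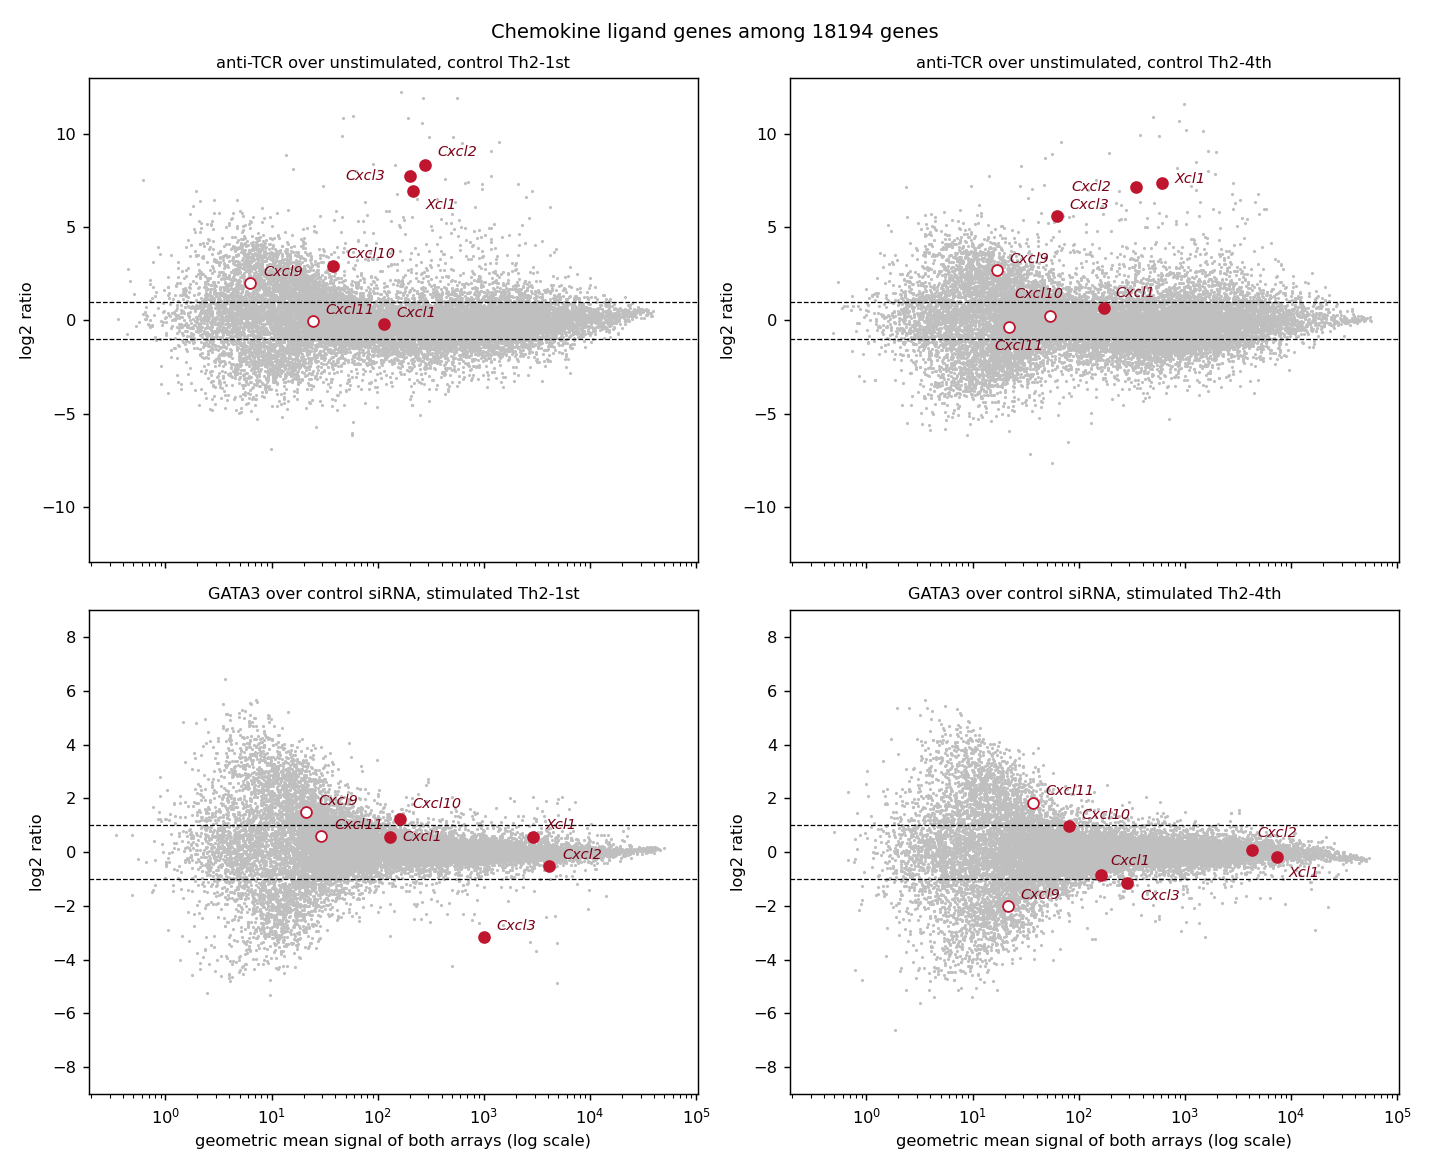
Log2 ratio of 2 arrays against the geometric mean of their signals (log scale) for 18194 genes (grey points), with the 7 chemokine ligand genes in red, filled where the higher signal was above the array median and open where it was not, and dashed lines at 2-fold. After anti-TCR (upper panels) Cxcl2, Cxcl3 and Xcl1 lie among the highest ratios, and with the Gata3 siRNA (lower panels) Cxcl3 lies lowest among the filled points, at -3.15 for Th2-1st and -1.16 for Th2-4th cells.

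The pattern over the 6 arrays was compared between genes by the root mean square (RMS) difference of log2 signals after the mean of each gene was taken away, among 12161 genes above the median on at least 1 array. For Cxcl2 the closest were Hbegf, an EGF receptor ligand (RMS 0.43), Inhba, the inhibin beta A subunit (0.45), and the CC chemokine gene Ccl4 (0.51). For Xcl1 they were Plek, the platelet and leukocyte protein pleckstrin (0.29), Inhba (0.34) and Rgs16, a regulator of G protein signaling (0.36). Cxcl2 and Xcl1 differed by 0.66 from each other and by 1.55 and 1.96 from Cxcl3.

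For Cxcl3 no gene came as close, and the nearest were Shisa3 (RMS 0.88), Fosl1, an AP-1 subunit (0.99), and Mlana (1.03). Shisa3 read 25.5, 1188 and 867 in Th2-1st and 9.48, 504 and 395 in Th2-4th cells, so that it shared the lower level in stimulated Th2-4th cells but not the size of the siRNA ratio. For Cxcl10 the nearest were Asb11 (0.24), 4933438K21Rik (0.41) and Rorb (0.41), all with modest signals, and for Cxcl1 they were Slc14a2 (0.10), Gm10451 (0.11) and Ccnk (0.14), with patterns nearly as flat as its own. These are descriptions over 6 arrays, 3 from each culture.

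**Figure D4:**
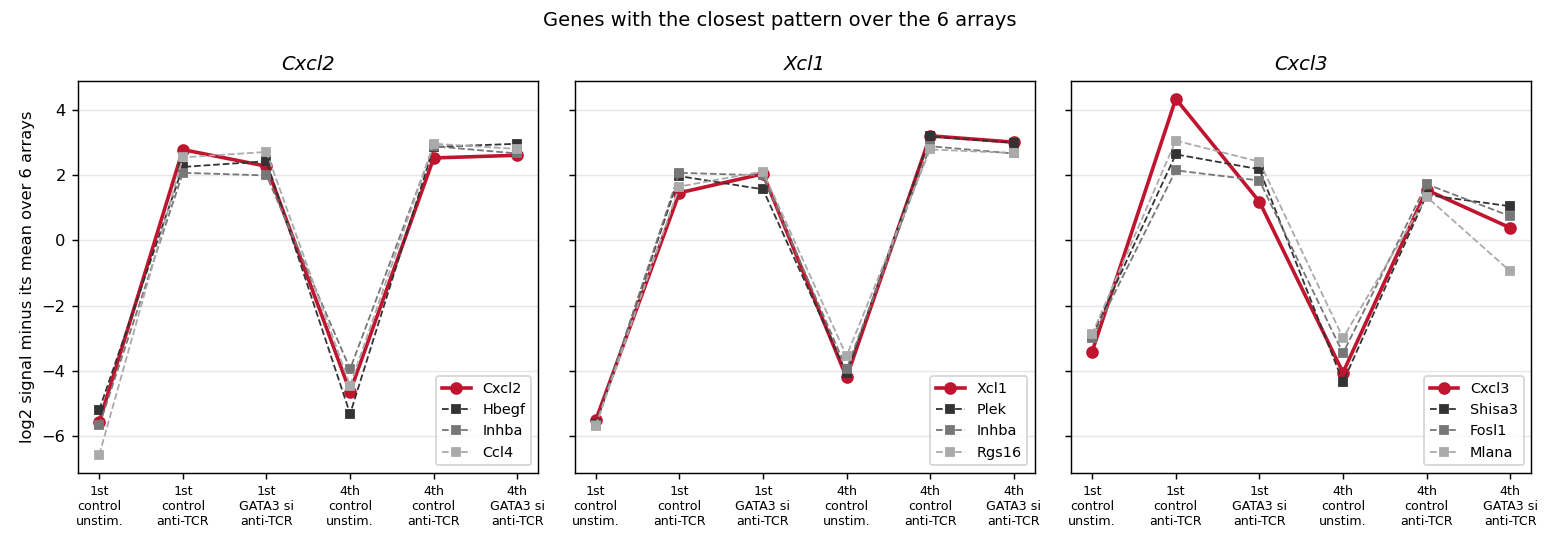
Log2 signal minus its mean over the 6 arrays for Cxcl2, Xcl1 and Cxcl3 (red) and for the 3 genes with the smallest RMS difference to each (grey and black), with 1 array per condition on the horizontal axis. The neighbours of Cxcl2 and Xcl1 follow them closely, at RMS differences of 0.51 or less, while those of Cxcl3 lie at 0.88 to 1.03 and below it on the stimulated Th2-1st control array.

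The receptors for these ligands were then read in the same cells. Cxcr3, the receptor of CXCL9, CXCL10 and CXCL11, read 6175, 3497 and 5346 in Th2-1st and 2737, 1561 and 2178 in Th2-4th cells, above the median throughout and past 2-fold lower in Th2-4th cells in both control pairs (log2 ratios of -1.17 and -1.16). Cxcr2, the receptor of the neutrophil chemoattractants, and Xcr1, the receptor of XCL1, were low on all 6 arrays, at most 34.0 and 62. Of 8 receptor genes measured, 4 were above the median in each siRNA pair. Among those 4, 0 were higher and 1 lower past 2-fold with the Gata3 siRNA in each culture. Of all genes above the median, 4.41% were higher and 2.26% lower in Th2-1st, and 3% and 3.49% in Th2-4th cells. The lower receptor genes were Cxcr6, the receptor of CXCL16, in Th2-1st cells (1801 to 362, log2 ratio of -2.32) and Cxcr4, the receptor of CXCL12, in Th2-4th cells (194 to 77.6, -1.32). Cxcr6 read 1801 in stimulated Th2-1st and 15865 in stimulated Th2-4th control cells.

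The other CXC ligand genes, 9 in number, gave few signals above the median. After anti-TCR 3 of the 9 were past 2-fold higher and 1 lower in each culture. Of all genes, 17.5% were higher and 16.9% lower in Th2-1st, and 18.7% and 21.6% in Th2-4th cells. Counts this small do not set these ligand genes apart from all genes. Of the 2 above the median in Th2-1st cells, none were past 2-fold. Of the 3 in Th2-4th cells 1 was higher, Cxcl13 (53.1 to 106), the B cell chemoattractant, where 14.6% of genes above the median were. With the Gata3 siRNA Cxcl17 went in opposite directions, from 18.6 to 100.0 in Th2-1st and from 115 to 39.5 in Th2-4th cells. Cxcl16, the ligand of CXCR6, read 84.4 to 160 and passed 2-fold in 0 of the 6 comparisons.

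NF-kappa B genes were high after stimulation as well. Of 13 measured genes of the NF-kappa B axis, 11 were past 2-fold higher and 0 lower after anti-TCR in each culture (medians 2.35 and 2.15). All 13 had at least 1 signal of each pair above its array median. Of all genes above the median, 10.7% were higher and 16.7% lower for Th2-1st, and 14.6% and 21% for Th2-4th cells. Rel, the c-Rel subunit, went from 80.9 to 1829 and from 98.2 to 3714. With the Gata3 siRNA 1 of the 13 was past 2-fold in Th2-1st cells, the cytokine gene Tnf (3803 to 13831, log2 ratio of 1.86), and 0 in Th2-4th cells. Of all genes above the median, 4.41% were higher and 2.26% lower in Th2-1st, and 3% and 3.49% in Th2-4th cells. These counts do not set the 13 genes apart. Nfkbiz encodes I-kappa B-zeta, a nuclear protein of the I-kappa B family. It was lower with the Gata3 siRNA but not past 2-fold, at 5858 to 2950 (-0.99) in Th2-1st and 21121 to 11666 (-0.86) in Th2-4th cells. The median log2 ratio of the 13 genes was 0.02 and -0.12.

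Of 16 measured genes of the interferon axis, which induces the CXCR3 ligands, 5 were past 2-fold higher and 2 lower after anti-TCR in Th2-1st cells, with 6 and 1 for Th2-4th cells. All 16 had at least 1 signal of each pair above its array median. Of all genes above the median, 10.7% were past 2-fold higher and 16.7% lower for Th2-1st, and 14.6% higher and 21% lower for Th2-4th. The axis had a larger share higher than such genes in each culture, a difference that was not tested. Its counts lower, 2 and 1 of 16, are too small to be set apart from the shares of such genes. Ifng itself read 23.3, 16961 and 23417 in Th2-1st and 70.1, 38438 and 32458 in Th2-4th cells. With the Gata3 siRNA, 0 of the 16 passed 2-fold in either culture. Of all genes above the median, 4.41% were higher and 2.26% lower in Th2-1st, and 3% and 3.49% in Th2-4th cells. At shares this small, 0 of 16 does not set the axis apart. Irf1, an interferon-induced transcription factor gene, gave log2 ratios of -0.48 and -0.67, and Irf8 gave 0.46 and 0.44. Iigp1, an interferon-gamma induced GTPase gene, gave -0.08 and -0.26, and Gbp2, another such gene, gave 0.60 and -0.24. The median of the 16 was 0.12 and -0.08. Cxcl10 gave 1.24 and 0.96, and a link to these genes was not tested.

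Markers of other cell types were read because several of these ligands are also made by myeloid and stromal cells. The 10 macrophage, monocyte and granulocyte markers summed to 439 to 695 over the arrays, with 3 or 4 of the 10 above the median and none at exactly 0. Their sum was 461 and 458 in stimulated Th2-1st cells with the control and the Gata3 siRNA, and 553 and 478 in Th2-4th cells. Among them Lyz2 read 4.80 to 45.0, S100a8 9.32 to 28.0 and S100a9 2.39 to 24.7. Higher signals came from Cd68 (67.6 to 234), Adgre1 (68.7 to 147) and Csf1r (43.3 to 144). With the Gata3 siRNA Adgre1 went from 147 to 71.1 in Th2-1st and from 68.7 to 77.7 in Th2-4th cells. Csf1r went from 84.6 to 144 in Th2-1st and from 131 to 43.3 in Th2-4th cells. The 6 dendritic cell markers measured summed to 596 to 925 and the 4 B cell markers to 108 to 199.

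The sums of other lists moved with the siRNA, largely through few genes. The 5 mast cell and basophil markers summed to 329 with the control and 153 with the Gata3 siRNA in stimulated Th2-1st cells, and to 1226 and 285 in stimulated Th2-4th cells, with at most 2 of the 5 above the median on any array. Cpa3 read 255 and 67.7 on these Th2-1st arrays and 320 and 44.9 on these Th2-4th arrays. Mcpt8 read 7.63 and 5.81 on the former and 873 and 171 on the latter. The 5 markers summed to 621 and 807 on the unstimulated Th2-1st and Th2-4th arrays, with Cpa3 at 562 and 582. The 7 markers listed as stromal and endothelial summed to 3000 and 1426 in stimulated Th2-1st and to 2931 and 735 in stimulated Th2-4th cells. Most of it came from Epcam (2781, 1128, 2541 and 418), which is an epithelial gene. Pecam1, the next highest of the list, did not fall with the siRNA (112, 148, 177 and 177). The 5 CD8 T and NK cell markers summed to 769 and 1133, and to 992 and 1108, with Eomes at 275 and 519, and at 574 and 668. The part of these lists in the ratios of Cxcl3 and Cxcl10 was not tested.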

How the data were processed

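RNA of 6 cell samples (1 per condition) was hybridised to Affymetrix mouse genome arrays. Per the labels, the Affymetrix Expression Console turned scans into probe set signals, with no version or algorithm named in the sources used here. The intensity values that the authors deposited are linear and scaled, since on every array their mean is 500.0 once the outer 2% of probe sets are left out. The labels give anti-TCR at 3 mg/ml and the methods 3 µg/ml for the restimulation.

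Probe sets naming 1 gene in the platform annotation (34958 of 45101) were used, and 99.4% of these matched a RefSeq symbol. Of several probe sets for 1 gene, the one with the highest average log2 signal was read. Ratios of array pairs gave 6 comparisons, and a ratio under 0.5 or over 2 was counted as past 2-fold. No fit or p-value was possible with 1 array per condition, and that number limits the precision. The spread of a ratio is 1.4826 times the median absolute deviation in 20 bins of signal.

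By rule, all 7 members, Gata3 and the 3 genes closest in pattern to each member whose highest signal was above the median were named, and any gene of 4 fixed lists that was past 2-fold above the array median could be. Those named from the lists are examples picked with their values seen, and the others are counted. Genes of those lists outside this rule (Cxcr2, Xcr1, Cxcl16), the marker genes and the chromosomal neighbours were named after their values had been seen. The members and lists were chosen with earlier results of these data known.

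Alternatives were the mean over probe sets, the largest ratio among probe sets, no probe sets that can cross-hybridise, low signals raised to the array median, a pseudocount of 32, arrays centred on their median, quantile normalization, a filter at the array median and a threshold of 3.2-fold. Scripts were tested on simulated data. Python 3.11.15, numpy 2.4.6, pandas 2.3.3, biopython 1.88 and matplotlib 3.10.9 were used.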

Additional observations from a re-analysis of the deposited data

Results flagged for a closer look

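Cxcl1 and Cxcl9 had ratios of Gata3 over control siRNA in opposite directions in the 2 cultures. The log2 ratio in Th2-4th minus that in Th2-1st cells was -1.42 for Cxcl1 (0.56 for Th2-1st, -0.87 for Th2-4th cells) and -3.48 for Cxcl9 (1.47 and -2.01). With 1 array per condition the difference was not tested for either gene. The Cxcl9 signals were low on every array, and the Cxcl1 values come from a probe set that can bind other transcripts. The other such Cxcl1 probe set gave 0.14 and -0.45, with the same signs, and the 1 probe set without that mark gave -2.15 and 0.21 from signals that were all low.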

How the results depend on the processing

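No paired analysis was possible because each group has 1 array, and for the same reason no replicate could be left out. Of 54 recomputed counts of members past 2-fold, 43 were within 1.5 times the count reported and 11 were not. A 3.2-fold threshold took the siRNA count in Th2-1st cells from 3 to 1 and the count between unstimulated cultures from 3 to 1. Low signals raised to the array median gave 1 in place of 3 for the siRNA in Th2-4th cells, 3 in place of 5 for anti-TCR in Th2-1st cells and 0 in place of 3 between unstimulated cultures. A pseudocount of 32 gave 1, 0 and 2 for the siRNA in Th2-4th cells, the unstimulated cultures (3) and the stimulated cultures (4). The filter at the array median gave 1 and 0 for the first 2 of these, and the probe set with the largest ratio gave 5 between unstimulated cultures. Of 294 recomputed member ratios 26 changed sign, 20 of them ratios reported as within 2-fold (11 of Cxcl1, 7 of Cxcl11 and 1 each of Cxcl3 and Cxcl10) and 6 reported as past 2-fold. Those 6 were Cxcl1 between stimulated cultures (-0.026 by the mean over probe sets, -2.80 by the largest ratio and -2.80 without probe sets that can cross-hybridise), Cxcl9 after anti-TCR (-0.017 for Th2-1st, -0.026 for Th2-4th cells) and Cxcl11 with the siRNA in Th2-4th cells (-0.037), the last 3 after low signals were raised. The siRNA log2 ratio of Cxcl3 lay between -3.32 and -3.02 in Th2-1st and between -1.16 and -1.04 in Th2-4th cells. It stayed past 2-fold in all 7 alternatives, as did its difference between stimulated cultures (-3.03 to -2.70). Of the 7, only centring, quantile normalization and the pseudocount could change these values. Cxcl3 has a single probe set, without a cross-hybridisation suffix, and its stimulated signals were above the medians. The same holds for Cxcl10 in stimulated Th2-1st cells. The siRNA ratio of Cxcl10 in Th2-1st cells ranged from 1.03 to 1.24, and that in Th2-4th cells passed 2-fold in 1 of the 7. Centring arrays on their median moved the median of all genes from 0.05 to -0.12 for the siRNA in Th2-1st cells, from 0.17 to -0.07 between unstimulated and from 0.10 to -0.14 between stimulated cultures. Signals under the array medians limit Cxcl9, Cxcl11 and every unstimulated value of Cxcl2, Cxcl3, Cxcl10 and Xcl1.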
